A study of Mus musculus with 16 samples.

Results

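The genes described here are those of the cytosolic ribosomal proteins, the proteins that build the ribosome of the cytosol together with ribosomal RNA. Members were the protein-coding genes of the count table whose symbol is Rpl or Rps followed by a number, together with Rplp0, Rplp1, Rplp2 and Rpsa, and without the Rps6k kinases, pseudogenes and names ending in -ps. The rule found 86 of 52636 genes. They were 31 proteins of the small subunit, 43 of the large subunit, 3 of the ribosomal stalk, 8 paralogs (copies of another member under a symbol of their own) and Rps19bp1. The symbol of Rps19bp1 meets the rule, but it names a protein that binds ribosomal protein S19, so 85 members are ribosomal proteins or their close copies. After the filter on low counts, 82 of the 86 members were tested among 18587 genes. The other 4 members, the paralogs Rps27rt, Rpl3l, Rpl39l and Rpl10l, had 4 to 10, 1 to 12, 0 to 3 and 0 to 1 counts per library.

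RNA was sequenced from isolated islets of male mice, 12 weeks old, given as strain C57BL/6JRj in the sample labels and as C57BL/6NRj in the study's methods. Islets were cultured for 10 days in medium with 2% human serum and received nothing (control), the cytokine IL-1β at 50 pg/mL, sodium butyrate at 0.2 mM, or both agents. Each of the 4 conditions had 4 libraries from independent experiments, 16 in all, and each library came from 500 islets that were pooled from several mice, so the spread between libraries is that between experiments and not between single mice. IL-1β is a pro-inflammatory cytokine that impairs beta cells at long exposure, while butyrate, a fatty acid made by gut bacteria, inhibits histone deacetylases. The questions here are how each agent moved the mRNAs of the ribosomal proteins, and whether butyrate moved them differently when IL-1β was present.

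A ribosome holds 1 copy of nearly every ribosomal protein, and the cell makes them in matched amounts. Their mRNAs begin with a C followed by a run of pyrimidines, the 5′ terminal oligopyrimidine (TOP) tract, through which the kinase complex mTORC1 and the protein LARP1 control how strongly they are translated. The transcription factor MYC raises the transcription of many of them. Beta cells put a large part of their translation into insulin.

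The start sequences are shown because this tract is the feature that the members share by textbook knowledge and that the rule did not use. The RefSeq promoter table (GRCm38.p6) matched 66 of the 86 members. Each sequence below runs 5′ to 3′ on the strand of the gene, with 10 bases before the annotated transcription start and the first 20 bases of the transcript. Capitals mark a run of at least 5 letters C or T that begins with C within 5 bases of the start. For a member with several annotated starts, the first start with such a run is shown. The members shown are among those with a changed level in the comparisons below, with Rps27 as the partner of Rps27l. Rpl3, Rpl36 and Rplp1 had no entry.
Rps27, chr3:90213629-90213658, minus strand: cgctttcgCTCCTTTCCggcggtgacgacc
Rps27l, chr9:66946076-66946105, plus strand: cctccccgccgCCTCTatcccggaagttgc
Rps24, chr14:24490668-24490697, plus strand: gctggggtCCTTCCTTgcgcgttgatatga
Rps10, chr17:27635225-27635254, minus strand: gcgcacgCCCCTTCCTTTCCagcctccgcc
Rpl15, chr14:18270967-18270996, minus strand: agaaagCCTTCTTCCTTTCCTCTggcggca
Rpl34, chr3:130730379-130730408, minus strand: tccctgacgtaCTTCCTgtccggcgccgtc
Rpl38, chr11:114668570-114668599, plus strand: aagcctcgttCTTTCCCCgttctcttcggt
Rplp2, chr7:141447641-141447670, plus strand: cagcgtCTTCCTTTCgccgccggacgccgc

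The run was 17 letters long in Rpl15, 13 in Rps10, 9 in Rps27 and Rplp2, 8 in Rps24 and Rpl38, 6 in Rpl34 and 5 in Rps27l. In Rps27l and Rpl34 it started after the first transcribed base, which is a G and an A, respectively. Over all matched members, 30 of 66 (45.5%) had such a run at an annotated start, against 5718 of 27025 genes in the table (21.2%). The genes of the table were not limited to those expressed in these islets. The letters CCGGAAG on either strand, the core that ETS factors bind, lay in the 300-base window (250 before and 50 after the start) of 26 of 66 members (39.4%) and of 2683 of 27025 genes (9.93%), with 1.18 annotated starts per member and 1.22 per gene of the table. Letters found in a window are a description and not a site.

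In control islets, the members differed widely in level per length. Levels are given as TPM, the counts divided by the exon length of the gene and scaled to the same sum in every library. The stalk protein Rplp1 had the highest level, 969 ± 61.7 TPM (SD, n = 4), followed by Rplp0, the base of the stalk, with 775 ± 37.9 TPM. The large subunit protein Rpl4 followed with 770 ± 33.2 TPM, which did not differ from Rplp0 beyond the spread between libraries. Rps15 of the small subunit had 649 ± 35.2 TPM and Rpl8 of the large subunit 621 ± 11.6 TPM. The median of the 82 tested members was 141 TPM, and 66 of them lay within 3-fold of it.

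The lowest tested members were Rpl24 with 3.27 ± 0.38 TPM, Rpl13a with 14.9 ± 1.24 TPM, the paralog Rpl36al with 16.6 ± 1.39 TPM, Rps19bp1 with 22.7 ± 2.59 TPM and Rps15a with 26.1 ± 1.04 TPM. Rpl24 had only 11 to 36 counts per library. These positions depend on how reads were assigned. Exons of Rpl24 share 47.0% of their length with Gm28037 on the same strand and those of Rpl13a share 36.8% with Gm45713 and other genes, while Rps15a has an annotated exon length of 6270 bases (5179 for its principal coding transcript). With the length of the principal coding transcript in place of all exons, Rpl41, Rpl4 and Rps21 held ranks 1, 2 and 3, Rplp1 and Rplp0 ranks 4 and 5, and Rpl24 again rank 82 (Spearman's rho of both orders 0.823 over 82 members). Of the 86 members, 47 overlap no other gene and 11 share over 20% of their exon length with other genes, summed over those genes.

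**Figure D1:**
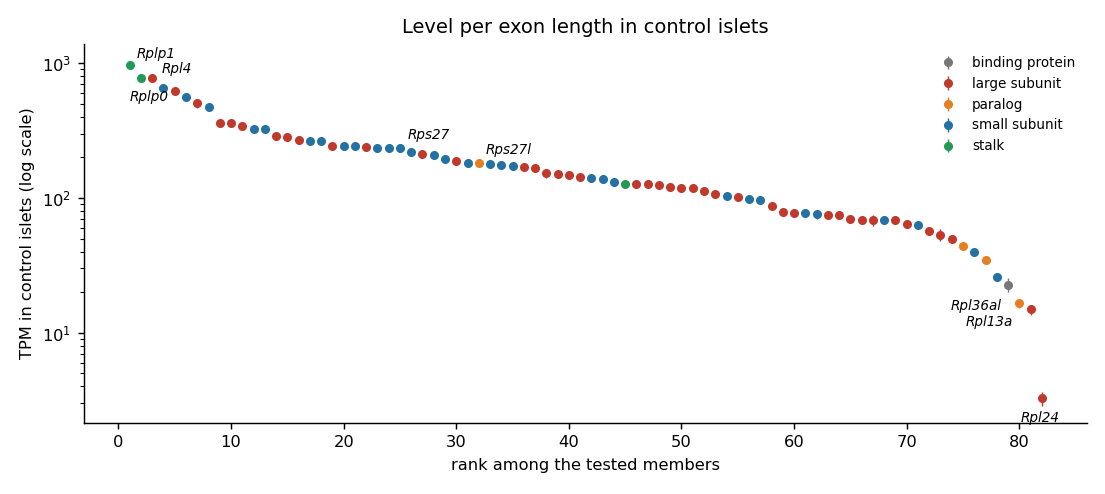
Mean TPM (log axis) of the 82 tested members in the 4 control libraries, in order of level, with the SD as bars and the class of the protein as colour. The levels run from 969 for Rplp1 to 3.27 for Rpl24, and the paralog Rps27l has rank 32 with 180 TPM, against rank 25 and 233 TPM for its partner Rps27.

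The libraries held 18635943 to 25955943 counts on genes. Ins2 was the most counted gene over all libraries, and all 9 beta, 5 alpha and 3 delta cell markers were expressed, while the acinar markers of the exocrine pancreas summed to a CPM of 0.25 to 13.9 (CPM is the normalised read count, relative to a library total scaled by the TMM method). For the ribosomal proteins, some libraries stood apart from the others of their condition. IL-1β replicate 2 had the highest CPM of the 4 IL-1β libraries for 80 of the 82 tested members. Control replicate 2 was the highest for 68 and IL-1β plus butyrate replicate 2 for 54. Control replicate 1 was the lowest for 59, butyrate replicate 4 the lowest for 68, and IL-1β plus butyrate replicate 1 the lowest for 70. The members thus are not independent of each other. Results that rest on such a library are given with and without it.

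The share of all counts that fell on the members was close to 1% in every condition. It was 0.995 to 1.09% in control islets (mean 1.05%), 1.06 to 1.24% with IL-1β (mean 1.14%), 1.02 to 1.08% with butyrate (mean 1.05%) and 1.14 to 1.23% with both (mean 1.20%). With both agents, all 4 libraries lay above all control and all butyrate libraries. The share of Ins2, which encodes insulin, moved at the same time: 13.4 to 15.1% in control islets, 7.86 to 9.97% with IL-1β, 14.4 to 16.7% with butyrate and 7.98 to 9.97% with both. Without the 10 most counted genes (among them Ins2, Ins1, Iapp and Gcg), the members held 1.44 ± 0.065% of the remaining counts in control islets, 1.48 ± 0.12% with IL-1β, 1.48 ± 0.063% with butyrate and 1.55 ± 0.064% with both, and the ranges of all conditions overlapped. In bulk RNA, a change in the number of cells of a type and a change in the RNA per cell cannot be told apart. The ratio of small to large subunit CPM was 0.767 to 0.791 over all 16 libraries.

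**Figure D2:**
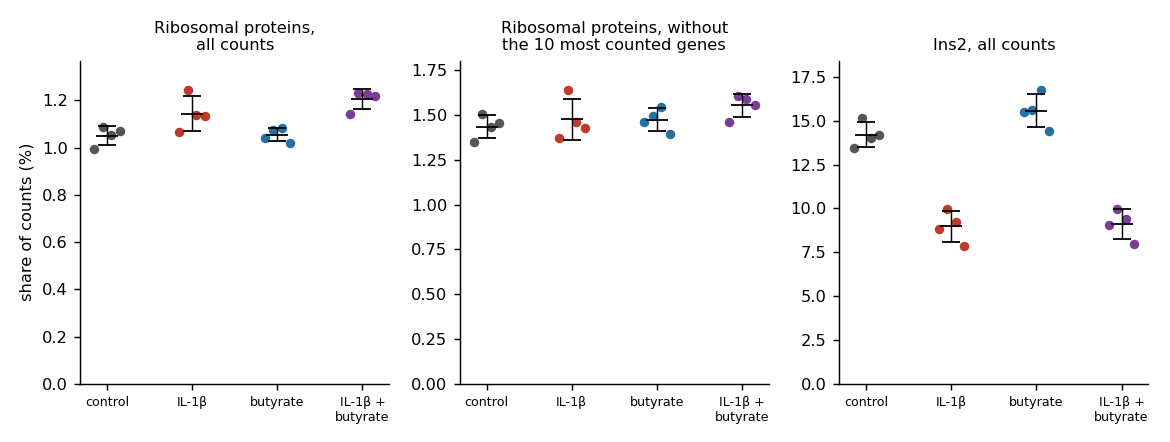
Share of gene counts per library (%) for the ribosomal proteins, for the ribosomal proteins after removal of the 10 most counted genes, and for Ins2, with 1 point per library and the mean ± SD of the 4 libraries of a condition. The share of the members is highest with IL-1β plus butyrate (1.14 to 1.23%), where that of Ins2 is 7.98 to 9.97%, and the conditions overlap once the 10 genes are removed.

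With IL-1β, 1 ribosomal protein gene passed the test in the main fit, which took no account of the replicate number. Rps27l, a paralog of Rps27 known to be induced by p53, rose, and no member fell (edgeR's quasi-likelihood test over all genes, Benjamini-Hochberg adjusted p under 0.01). Over all genes tested, 11.2% rose and 6.59% fell. At an unadjusted p under 0.05 there were 20 members, and the share of all genes at this limit was not computed. The changes were small and mostly of one sign: 68 of 82 members had a positive log2 fold change and 14 a negative one, with a median of 0.07 against -0.03 for all genes tested and a median standard error of 0.06. Rps20, Rps14 and Rpl18, named after their values were seen, came next with adjusted p of 0.0103, 0.0105 and 0.0127 and log2 fold changes of 0.18, 0.20 and 0.20. With DESeq2, 4 members rose, Rps27l and these 3, and 7.74% of 42075 genes were called. Over 21 alternatives, Rps20 and Rps14 were called in 11 and Rpl18 in 7. With the replicate number as a block, 11 members rose and 0 fell, and 24.4% of all genes were called.

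Markers of several cell types moved in the same comparison. Of 9 beta cell markers 7 fell and 1 rose, and their summed CPM lay at 215143 to 237883 without and at 138204 to 179839 after addition of IL-1β. Of 5 duct markers tested 3 rose, with a summed CPM of 341 to 368 and of 502 to 600. Of 4 acinar markers tested 2 rose, with a summed CPM of 0.25 to 2.39 and of 2.84 to 13.9. No marker tested was at 0 in all libraries of a condition. Their part in the values of the ribosomal proteins was not tested.

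Rps27l lies on chromosome 9 from 66946086 to 66949516 (GRCm38, GENCODE M21). Its CPM was 64.8, 62.2, 56.1 and 55.6 in the 4 control libraries. With IL-1β it was 79.2, 83.4, 70.1 and 62.0. With IL-1β, 3 of the 4 values lay above the control range and the lowest lay inside it. The log2 fold change was 0.30 (SE 0.079, edgeR adjusted p 0.0068), or 23.2% more. Without IL-1β replicate 2 it was 0.24 (adjusted p 0.028) and no longer called, the median of the members fell to 0.02, and 1 member, Rpl12, was called as lowered. The call of Rps27l was also lost without IL-1β replicate 1, control replicate 2, 3 or 4, or butyrate replicate 3, with adjusted p of at most 0.028. Scaling by library size alone gave 20 raised members, where 18.9% of all genes were called.

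Butyrate changed a small set of members in opposite directions. Against control, 7 rose and 3 fell, and over all genes tested 8.53% rose and 11.4% fell. In islets that also received IL-1β, 6 members rose and 3 fell, against 8.41% and 11.1% of all genes. The raised members were thus about as frequent as raised genes in the whole table. The lowered members, 3 of 82 in each comparison, were less frequent than lowered genes. The counts of called members were not stable. Without butyrate replicate 3, 3 rose against control, where 16.7% of all genes were called in either direction. For butyrate added to IL-1β, 18 rose without IL-1β replicate 2 (17% of all genes called) and 1 without IL-1β plus butyrate replicate 2 (17.4%). With the replicate number as a block, 12 rose and 6 fell against control, where 26.2% of all genes were called. In the presence of IL-1β, 15 rose and 3 fell with the block, where 26.8% of all genes were called. The median log2 fold change of the members was 0.06 against control (all genes 0.01), and 0.03 without control replicate 1 or butyrate replicate 3. It was 0.08 without control replicate 2 or butyrate replicate 4. For butyrate added to IL-1β the median was 0.07 (all genes 0.01), 0.12 without IL-1β replicate 2, and 0.03 to 0.04 without IL-1β replicate 1 or 4 or IL-1β plus butyrate replicate 2 or 3. Without IL-1β plus butyrate replicate 1 it was 0.09. The comparisons share no library. The 5 members Rpl3, Rpl34, Rpl38, Rpl15 and Rps24 rose in both, and Rps27l and Rplp1 fell in both. Rpl36 and Rplp2 rose only against control by this threshold and Rps10 only in the presence of IL-1β, but the difference between the effects was not called for these members (edgeR adjusted p 0.88, 0.86 and 0.96).

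**Figure D3:**
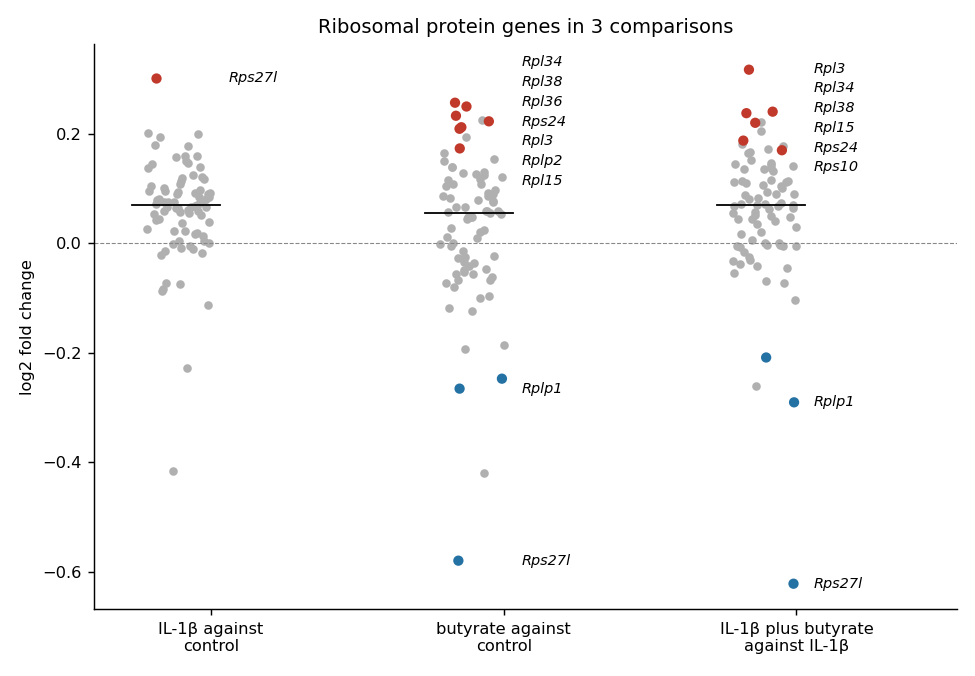
Log2 fold change of the 82 tested members in 3 comparisons, with 1 point per gene. Red and blue points are called as raised and lowered at an edgeR adjusted p under 0.01, grey points are not called, black lines are the medians of the members (0.07, 0.06 and 0.07), and the gene names given stand in the order of their fold change. Rps27l is the called gene farthest from 0 in each butyrate comparison.

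Rps27l fell most. With butyrate its CPM was 41.4, 39.7, 40.4 and 38.2, all below the lowest control value of 55.6. With both agents it was 46.8, 54.2, 44.8 and 45.2, all below the lowest value with IL-1β of 62.0. The changes on the log2 scale were -0.58 (SE 0.082, edgeR adjusted p 1.7e-05) against control and -0.62 (SE 0.080, adjusted p 6.1e-06) against IL-1β, so that it fell by 33.1% and fell by 35.0%. Neither call was lost in any of 21 alternative analyses.

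The partner gene Rps27 was not called. It had 92.8 to 102 CPM in control islets, 97.0 to 114 with IL-1β, 88.3 to 113 with butyrate and 98.9 to 110 with both, and all ranges overlapped. Its log2 fold changes with butyrate were 0.05 (SE 0.062) and 0.02 (SE 0.062), edgeR adjusted p 0.57 and 0.84. Within a library, the TPM of Rps27l was 77.7 ± 8.5% of that of Rps27 in control islets, 91.8 ± 9.7% with IL-1β, 50.2 ± 3.9% with butyrate and 58.7 ± 3.6% with both (n = 4 each). The ranges without butyrate, 69.8 to 104%, and with butyrate, 45.8 to 62.7%, did not overlap. Reads that match both copies could be assigned to either, and how the counting treated them is not given in the sources used here.

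The summed CPM of 8 macrophage marker genes moved as well. It was 130 to 143 in control islets, 185 to 232 with IL-1β, 86.2 to 107 with butyrate and 101 to 137 with both, with no marker at 0 in all libraries of a condition. All 8 markers were called with IL-1β (7 raised and 1 lowered), 1 fell with butyrate, and 5 fell with butyrate added to IL-1β. With IL-1β, C1qa fell (log2 fold change -0.49, SE 0.12) and the other 7 rose by 1.34 to 2.89. The sum thus does not stand for each marker. The 10 proliferation markers all fell in both butyrate comparisons, from 126 to 240 summed CPM in control islets to 49.5 to 65.5 with butyrate, and from 104 to 158 with IL-1β to 46.3 to 68.1 with both. Their part in the change of the ribosomal proteins was not tested.

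Of the small subunit, Rps24 rose with butyrate, both with and without IL-1β, and Rps10 rose with butyrate added to IL-1β. Rps24, needed for the maturation of the small subunit RNA and mutated in Diamond-Blackfan anaemia, had a CPM of 150, 163, 166 and 162 in control islets and of 187, 188, 196 and 178 with butyrate. With IL-1β it had 152, 173, 164 and 147, and with both agents 175, 190, 182 and 176. All values with butyrate lay above those without it. The changes on the log2 scale were 0.22 (SE 0.050, edgeR adjusted p 0.0012) and 0.19 (SE 0.050, adjusted p 0.0055). The second was lost when any IL-1β library other than replicate 2, or any library with both agents, was left out (adjusted p of at most 0.047).

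Rps10, mutated in the same anaemia, rose from 75.6, 82.2, 73.9 and 73.6 CPM with IL-1β to 82.8, 84.9, 88.2 and 87.6 CPM with both agents. No value overlapped. The log2 fold change was 0.17 (SE 0.045, edgeR adjusted p 0.0052), and the call was lost with no filter on low counts, without IL-1β replicate 1, 3 or 4 and without any library with both agents (adjusted p of at most 0.039). Exons of Rps10 share 28.7% of their length with a read-through gene and an antisense gene, and the library kit does not mark strand, so reads of both strands cannot be told apart there. The median log2 fold change of the 31 small subunit genes was 0.05 with butyrate against control and 0.07 in the presence of IL-1β.

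Of the large subunit, 5 of 43 genes rose and 0 fell with butyrate against control, and 4 rose and 0 fell in the presence of IL-1β. The raised shares were 11.6% and 9.3%, against 8.53% and 8.41% of all genes. At an unadjusted p under 0.05 there were 14 and 15 genes, and the median log2 fold changes were 0.07 and 0.08. The share of all genes at that unadjusted limit was not computed. Rpl3, which reaches into the peptidyl transferase centre, rose in both comparisons. Its CPM was 216, 213, 213 and 216 in control islets and 254, 250, 250 and 239 with butyrate. With IL-1β it was 223, 240, 230 and 222, and with both agents 267, 298, 296 and 278. The groups were apart in both comparisons. The log2 fold changes were 0.21 (SE 0.044, edgeR adjusted p 0.00047) and 0.32 (SE 0.044, adjusted p 3.0e-06), and neither call was lost in the 21 alternatives that kept the whole library as the scale, while relative to the summed members the first was not called (adjusted p 0.0215). Exons of Rpl3 on chromosome 15 (80077791 to 80091868) share 2.9% of their length with a snoRNA gene.

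Rpl34 had a CPM of 84.3, 81.1, 84.1 and 79.8 in control islets and of 100, 94.1, 106 and 92.8 with butyrate. With IL-1β it had 85.4, 92.4, 83.8 and 81.7, and with both agents 92.3, 109, 103 and 101. The lowest value with both agents lay just below the highest with IL-1β, and the other comparison showed no overlap. The changes on the log2 scale were 0.26 (SE 0.054, edgeR adjusted p 0.00053) and 0.24 (SE 0.053, adjusted p 0.0010), the latter not called without IL-1β plus butyrate replicate 2 (adjusted p 0.0104).

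Rpl38, known for its part in the translation of Hox mRNAs, had a CPM of 54.3, 61.5, 59.7 and 62.2 in control islets and of 70.1, 70.1, 74.8 and 67.9 with butyrate. With IL-1β it had 60.3, 71.2, 58.6 and 58.9, and with both agents 64.8, 78.3, 74.7 and 75.9. Replicate 2 with IL-1β reached into the range with both agents. The log2 fold changes were 0.25 (SE 0.064, edgeR adjusted p 0.0037) and 0.24 (SE 0.063, adjusted p 0.0053). The first was lost without control replicate 1 or butyrate replicate 3 (adjusted p of at most 0.018) and the second without IL-1β replicate 1, 3 or 4 or IL-1β plus butyrate replicate 2, 3 or 4 (adjusted p of at most 0.039).

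Rpl15, a further Diamond-Blackfan gene, had log2 fold changes of 0.17 (SE 0.050, adjusted p from edgeR 0.0087) against control and of 0.22 (SE 0.050, adjusted p 0.0012) against IL-1β. Its CPM was 86.4 to 91.1 in control islets, 96.8 to 104 with butyrate, 81.5 to 96.1 with IL-1β and 97.1 to 108 with both agents. The ranges did not overlap in either comparison, although the first call was lost in 13 of 21 alternatives, among them the removal of any control or butyrate library (adjusted p of at most 0.039), and the second without IL-1β replicate 4 or IL-1β plus butyrate replicate 2 (adjusted p of at most 0.0125). Rpl36 had 53.1 to 58.6 CPM in control islets and 61.4 to 74.7 with butyrate, a log2 fold change of 0.23 (SE 0.062, adjusted p 0.0052), and 54.8 to 65.3 with IL-1β against 58.5 to 66.8 with both, a log2 fold change of 0.11 (SE 0.062, adjusted p 0.18). Its call was lost without control replicate 1 or 4 or butyrate replicate 1 or 3 (adjusted p of at most 0.038).

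The 3 stalk proteins did not move together. The stalk recruits and activates the elongation factors, with Rplp0 as its base and Rplp1 and Rplp2 as its acidic arms, which work in pairs. Rplp1 fell with butyrate: its CPM was 179, 215, 197 and 194 in control islets against 158, 163, 180 and 153 with butyrate, and 196, 227, 190 and 181 with IL-1β against 150, 167, 176 and 157 with both agents. The first pair of groups overlapped by 1 library on each side and the second did not overlap. The changes on the log2 scale were -0.27 (SE 0.069, edgeR adjusted p 0.0055) and -0.29 (SE 0.069, adjusted p 0.0027). The first was lost with upper-quartile scaling and without control replicate 2, 3 or 4, IL-1β replicate 1 or butyrate replicate 1, 2 or 4 (adjusted p of at most 0.031), and the second with upper-quartile scaling (adjusted p 0.0159).

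Rplp2 had 101 to 115 CPM in control islets and 112 to 133 with butyrate, a log2 fold change of 0.21 (SE 0.056, edgeR adjusted p 0.0056), lost without control replicate 3 or 4 or butyrate replicate 1, 2 or 3 (adjusted p of at most 0.033). In the presence of IL-1β it had 103 to 119 CPM without and 114 to 122 CPM with butyrate, and its log2 fold change of 0.09 (SE 0.056, adjusted p 0.22) was not called. Rplp0 had 486 to 556 CPM in control islets and 467 to 519 with butyrate, and its log2 fold changes were -0.07 (SE 0.054, adjusted p 0.40) and 0.00 (SE 0.054, adjusted p 0.96).

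**Figure D4:**
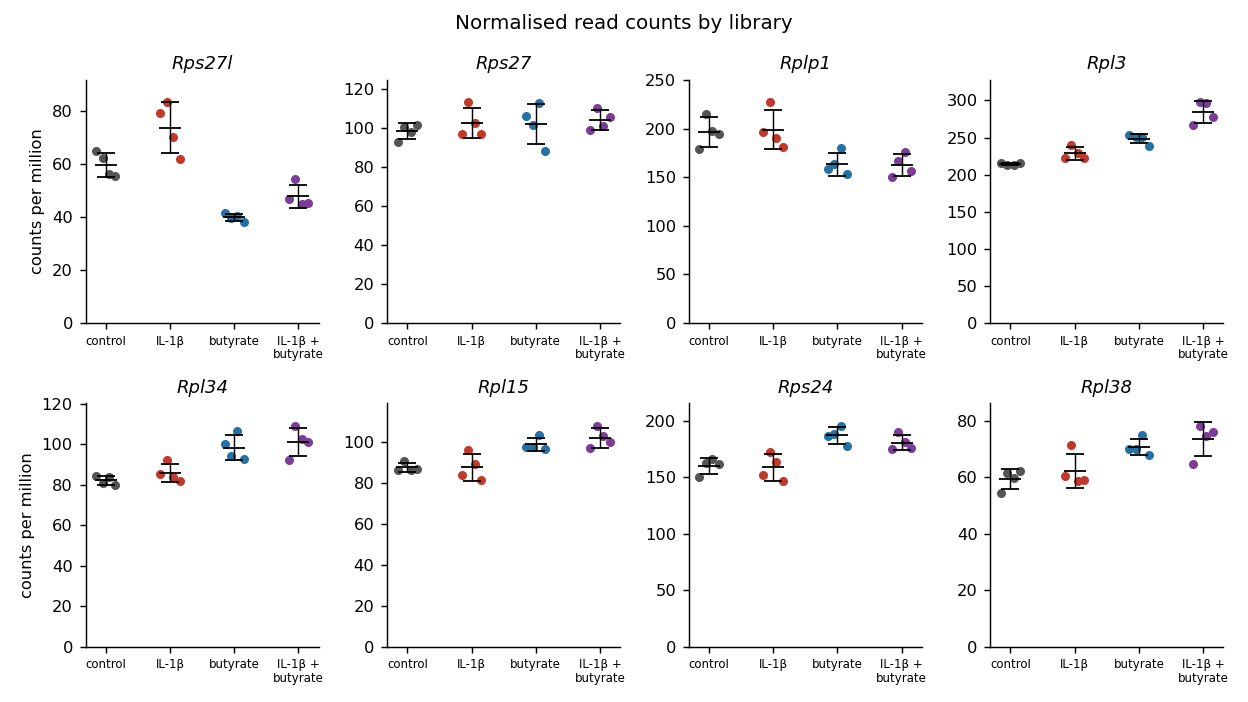
CPM (TMM-scaled) of 8 members in each of the 16 libraries, with 1 point per library and the mean ± SD of the 4 libraries of a condition. Rps27l lies at 38.2 to 54.2 in the butyrate conditions and at 55.6 to 83.4 in the others, Rps27 shows no such split, Rplp1 is lower with butyrate, and Rpl3, Rpl34, Rpl15, Rps24 and Rpl38 are higher.

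The effects of butyrate without and with IL-1β were close in most members. Pearson's r of both log2 fold changes was 0.888 and Spearman's rho 0.831 over 82 members (r was 0.737 over all 18587 genes), a description across genes that are not independent, and 69 of 82 had the same sign. A test of the difference between both effects called 0 members, with edgeR and with DESeq2, and 1 member (Rps23, log2 difference 0.17, SE 0.073, adjusted p 0.57) had an unadjusted p under 0.05. Over all genes, 0.0968% were called. The difference was -0.04 (SE 0.11) for Rps27l, 0.11 (SE 0.062) for Rpl3 and -0.03 (SE 0.098) for Rplp1.

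**Figure D5:**
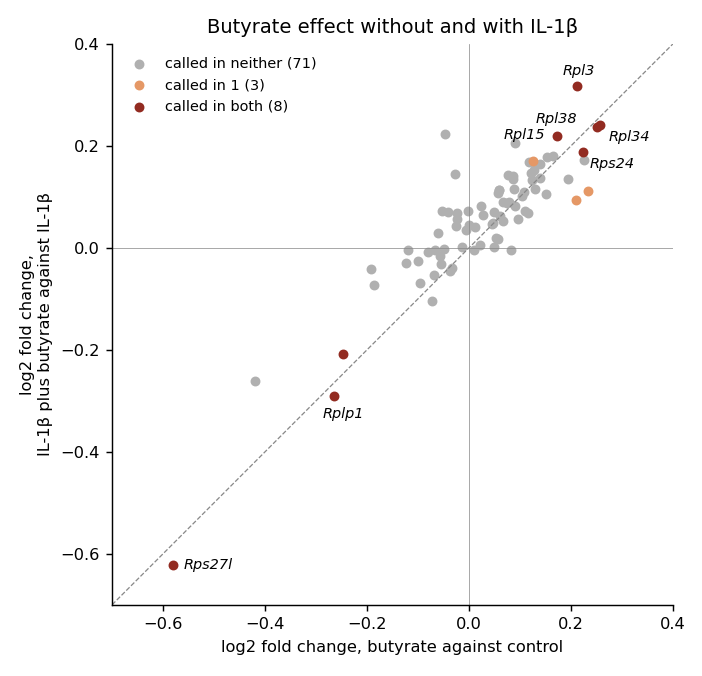
Log2 fold change of the 82 tested members with butyrate in the absence (horizontal) and presence (vertical) of IL-1β, with 1 point per gene and the line of equal effects. Of the 8 members called in both comparisons, 7 are named, 3 were called in 1, and Rps27l and Rplp1 lie in the lower left.

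Relative to the family itself, with the summed counts of the members as the scale, Rps27l and Rplp1 again fell with butyrate. Their log2 fold changes relative to the family were -0.61 (SE 0.077) and -0.29 (SE 0.059) against control and -0.68 (SE 0.076) and -0.35 (SE 0.059) against IL-1β, all called by edgeR. Rpl32 also fell against control (-0.21, SE 0.059, adjusted p 0.0090). Rpl34 (0.23, SE 0.060) and Rpl38 (0.22, SE 0.059) rose against control and Rpl3 rose against IL-1β (0.25, SE 0.057, adjusted p 0.0016). The other calls of raised members were lost on this scale, those of Rpl3, Rpl15, Rpl36, Rplp2 and Rps24 against control (adjusted p 0.0125 to 0.0598) and those of Rpl15, Rpl34, Rpl38, Rps10 and Rps24 against IL-1β (adjusted p 0.028 to 0.175). For IL-1β against control 0 members were called on this scale with edgeR, against 13.3% of all genes. There were 11 members at an unadjusted p under 0.05, a limit at which the share of all genes was not computed.

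The other paralogs did not pass the test in the main fit. Their levels relative to their partners are given as a description and were not tested. Rpl22l1, the paralog of the RNA-binding Rpl22, was at 61.0 ± 2.4% of the TPM of Rpl22 in control islets, 52.1 ± 2.7% with IL-1β, 50.9 ± 3.4% with butyrate and 44.2 ± 3.1% with both (n = 4 each). Every library with an agent lay below the lowest control library, 58.4%. The CPM of Rpl22l1 itself was 25.9 to 30.9 in control islets and 23.7 to 26.7 with both agents. Neither gene was called in any comparison, and the lowest adjusted p was 0.0129, for Rpl22 with butyrate (log2 fold change 0.19, SE 0.059). That change of Rpl22 was called in 6 of 21 alternatives. Exons of Rpl22l1 share 8.0% of their length with an antisense gene.

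Rpl36al, an intronless copy of Rpl36a, was at 24.2 ± 2.5%, 20.1 ± 4.6%, 17.1 ± 3.4% and 14.4 ± 1.7% of the TPM of Rpl36a in control, IL-1β, butyrate and both. All libraries with butyrate lay below the lowest control library, while those with IL-1β alone overlapped the controls. Its log2 fold change was -0.42 (SE 0.13, edgeR adjusted p 0.0137) with butyrate, at 122 to 240 counts per library, and the gene shares 24.5% of its exon length with Gm49383. This fall was called in 8 of 21 alternatives. Rpl7l1, which takes part in the assembly of the large subunit, was at 25.9 ± 0.18% of the TPM of Rpl7 in control islets, 22.6 ± 1.2% with IL-1β, 28.6 ± 1.0% with butyrate and 25.1 ± 1.5% with both. The ranges of control, IL-1β and butyrate did not overlap, and the gene itself was not called (adjusted p 0.26, 0.063 and 0.027 in the 3 comparisons). Rpl3l of striated muscle, and Rpl10l and Rpl39l of the male germ line, stayed at 0 to 12 counts per library.

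The genes that act with the ribosomal proteins were counted in the same fits. As a background, 11.2% of all genes tested rose and 6.59% fell with IL-1β, and 8.53% rose and 11.4% fell with butyrate. With butyrate added to IL-1β, these shares were 8.41% and 11.1%. Of the 3 ribosomal proteins under other symbols, Rack1 of the small subunit rose with butyrate added to IL-1β (log2 fold change 0.25, SE 0.049, edgeR adjusted p 0.00030) and had 0.12 (SE 0.049, adjusted p 0.061) without it. Of 17 other mRNAs known for a TOP tract, 3 rose and 0 fell with IL-1β, 1 rose and 5 fell with butyrate, and 2 rose and 4 fell with butyrate added to IL-1β, and the medians of their log2 fold changes were 0.12, -0.10 and -0.10, against 0.07, 0.06 and 0.07 for the members. Among them the elongation factor subunit Eef1g rose in both butyrate comparisons (0.20, SE 0.052, and 0.23, SE 0.052), while Npm1, a nucleolar chaperone of ribosome assembly, fell in both (-0.21, SE 0.054, and -0.23, SE 0.053).

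Of 6 host genes of small nucleolar RNAs, Gas5 and Snhg1 rose in both butyrate comparisons, Gas5 by a log2 fold change of 0.39 (SE 0.053) and 0.40 (SE 0.053) and Snhg1 by 0.49 (SE 0.065) and 0.42 (SE 0.067). Of 77 mitochondrial ribosomal proteins, which build the separate ribosome of the mitochondrion, 3 rose and 1 fell with IL-1β, 1 rose and 14 fell with butyrate, and 2 rose and 10 fell with butyrate added to IL-1β, with medians of 0.03, -0.10 and -0.06. Mrps31 fell most with butyrate against control (-0.40, SE 0.070) and Mrpl41 in the presence of IL-1β (-0.44, SE 0.066), while Mrpl49 rose in both butyrate comparisons (0.32, SE 0.054, and 0.37, SE 0.054).

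Of 55 ribosome assembly factors, 1 rose and 4 fell with IL-1β, 0 rose and 6 fell with butyrate, and 0 rose and 5 fell with butyrate added to IL-1β. The lowered shares of 10.9% and 9.09% in the butyrate comparisons were near the 11.4% and 11.1% of all genes. Of 47 initiation factors the counts were 7 and 1, 2 and 10, and 0 and 7, and of 11 elongation and termination factors 1 and 0, 1 and 3, and 2 and 1. Several genes were counted in more than 1 list, so the counts of the lists are not independent. Among them, Eef1g is in the TOP and elongation lists and Npm1 in the TOP and assembly lists. Eif6, which is needed for large subunit assembly and is counted in 2 of these lists, was raised by IL-1β (log2 fold change 0.60, SE 0.054, adjusted p 1.6e-09 by edgeR) and fell with butyrate added to IL-1β (-0.23, SE 0.053, adjusted p 0.0019). Of 14 genes of RNA polymerase I and its factors 0 and 1, 1 and 1, and 1 and 0 were called. Of 22 genes of the MYC and mTORC1 pathway, 0 rose and 2 fell with IL-1β, 1 rose and 3 fell with butyrate, and 2 rose and 2 fell with butyrate added to IL-1β. Myc fell in both butyrate comparisons by log2 fold changes of -1.01 (SE 0.15, adjusted p 7.8e-06) and -0.71 (SE 0.15, adjusted p 0.00087). Castor1, an arginine sensor of mTORC1, rose in both (1.26, SE 0.26, and 0.90, SE 0.23), and the MYC paralog Mycn rose in the presence of IL-1β (1.20, SE 0.22).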

How the data were processed

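The authors mapped single-end reads of total RNA libraries (NEBNext Ultra II, Illumina) to the mouse genome GRCm38 with STAR 2.5.3a, after bcl2fastq 2.19.1, FastQC 0.11.7 and MultiQC 1.7 per the submitters' processing notes, and deposited whole-number read counts per Ensembl gene, not normalized, 1 column per library. The strand setting, annotation release and treatment of reads that map to several places are not given in the sources used here. Symbols and exon lengths came from GENCODE M21, which held 52489 of 52636 genes; genes without a match held at most 0.0137% of the counts. Reads carried no molecular identifiers.

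The members, lists and tests were chosen with earlier results of these data known. In R 4.3.3, edgeR 4.0.16 filtered low counts (filterByExpr), scaled by TMM and fitted 1 robust quasi-likelihood model of the 4 conditions to all 16 libraries. Calls needed a p under 0.01 after Benjamini-Hochberg adjustment over 18587 genes, and 3 comparisons and the difference between both butyrate effects were tested. The step was tested on simulated counts. Named members were, per comparison, the 5 largest rises and 5 largest falls among called members. The 5 highest and 5 lowest TPM in control and the paralogs with their partner were also named. In other lists at most 2 rises and 2 falls were named. Rplp2, Rps10 and others outside this are given because they complete a count of few genes. Alternatives were upper-quartile scaling, library size only, DESeq2 1.42.0, no filter, the replicate number as a block, the summed member counts as library size, and leaving out each library. The values of 1 member are not reported here, though counts and medians over the members include it. Rows of 298 pseudogenes and other family names and 10 kinases were left out.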

Additional observations from a re-analysis of the deposited data

Results flagged for a closer look

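In 8 of 108 sets of 4 libraries (a named member, or the share of the family, in 1 condition), 1 library stood apart from the other 3 by Dixon's test at the 95% level. Chance gives about 1 in 20. Control replicate 2 held 2 of these: 91.1 CPM of Rpl15 (others 86.4 to 87.0) and 36.8 CPM of Rpl39 (others 28.9 to 29.7). With IL-1β, they were 0.569 CPM of Rpl24 in replicate 1 (others 1.12 to 1.19) and 71.2 CPM of Rpl38 in replicate 2 (others 58.6 to 60.3). With butyrate, they were 104 CPM of Rpl15 in replicate 3 (others 96.8 to 97.9) and 62.0 CPM of Rps15a in replicate 4 (others 71.1 to 72.4). With both agents, they were the 1.14% share of counts on all members in replicate 1 (others 1.22 to 1.23%) and 172 CPM of Rps15 in replicate 1 (others 185 to 187).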

How the results depend on the processing

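No called log2 fold change of a named member turned its sign in 21 alternatives (without the scale of the summed members). Of the printed values that were not called, 4 turned. For Rplp0 with butyrate added to IL-1β, upper-quartile scaling gave 0.043, library size only 0.0087, and leaving out 1 library -0.049 to 0.054. For the difference between both butyrate effects, Rplp1 had 0.013 with library size only and -0.081 to 0.046 without 1 library, and Rps27l had -0.13 to 0.024 without 1 library. For Rps27 with butyrate added to IL-1β, leaving out 1 library gave -0.025 to 0.071. Counts of called members depended on the settings, and the cause was not tested. For IL-1β against control, 1 raised member (17.8% of all genes called) became 20 when library size alone set the scale (18.9%). The count was 4 with DESeq2 (7.74% of 42075 genes), 7 without a filter (8.52% of 42076 genes) and 0 on the scale of the summed members (13.3%). The DESeq2 and unfiltered fits kept genes of low count and all 86 members. For butyrate against control (19.9% of all genes called), 7 raised became 13 with upper-quartile scaling (20.3%) and 2 on the scale of the summed members (13.5%). The 3 lowered became 5 with library size only (20.6%) and 6 without a filter (9.34% of 42076 genes). For butyrate in the presence of IL-1β (19.5% of all genes called), 6 raised became 14 with upper-quartile scaling (19.9%) and 1 on the scale of the summed members (15.9%). The 3 lowered became 1 with upper-quartile scaling. Leaving out 1 library gave 0 to 4 raised and 0 to 1 lowered for IL-1β, 3 to 8 raised and 2 to 6 lowered for butyrate, 1 to 18 raised and 2 to 3 lowered in the presence of IL-1β, and 0 for the difference throughout. The extremes came without butyrate replicate 3 (3 raised), IL-1β replicate 2 (18 raised, and 6 lowered for butyrate) and IL-1β plus butyrate replicate 2 (1 raised). The median of the members lay above that of all genes by 0.09 to 0.10 for IL-1β in every scaling tried. A change of scale shifts all genes alike, so it cannot test this gap. Leaving out 1 library gave a gap of 0.04 (without IL-1β replicate 2) to 0.12 (without IL-1β replicate 4).

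Libraries with the same replicate number correlated over 0.1 in 17 of 24 pairs (0.053 to 0.397) and best with their own number in 21 of 24. The number was not taken as pairing in the main fit, since no label states that it stands for an experiment. The study describes 4 independent experiments and used a paired t-test for its qPCR of islets. The column names do count the samples through the 4 conditions within each replicate number. Whether libraries of the same number are paired is thus not settled here. With the replicate block, 11 members rose and 0 fell for IL-1β (24.4% of all genes called), and 12 rose and 6 fell for butyrate (26.2%). In the presence of IL-1β, 15 rose and 3 fell (26.8%), and 0 differed between the butyrate effects (0.71%). The smallest called log2 change of a member was 0.17 with 4 libraries per condition.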
